A study of Caenorhabditis elegans with 5 samples.

Results

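The genes described here encode the proteins that bind the cap of messenger RNA and the scaffold that they recruit: ife-1, ife-2, ife-3, ife-4 and ife-5, the eIF4E genes of Caenorhabditis elegans, and ifg-1, its eIF4G gene. They were chosen by gene name, with earlier results of these data known, and are 6 of the 19176 genes in the count tables. Transcripts were counted in wild type N2 animals on the sixth day of adulthood (Day 6, 3 libraries) and as L4 larvae (2 libraries), and the comparison asks how levels changed during aging. All animals were grown from L1 larvae at 20° on RNAi plates with 2 mM IPTG and E. coli HT115 that carried L4440, the RNAi vector with no insert. Day 6 adults had also been kept from the L4 stage on 25 µg/mL 5-fluorodeoxyuridine (FUdR), a drug that blocks DNA synthesis and with it the production of progeny, and L4 larvae had received none, so the effect of age and that of FUdR cannot be told apart. RNA came from lysates of whole animals, each from a pool of animals, and the replicates were independent biological ones. In such lysates, fewer cells of a type and less RNA per cell cannot be told apart.

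Translation of most messenger RNAs starts when eIF4E grips the 5′ cap and eIF4G, bound to it, brings in the helicase eIF4A and, through eIF3, the small ribosomal subunit. C. elegans has several eIF4E proteins, which differ in where they are made and in the caps they bind. IFE-1 is made mainly in the germline, where it sits on P granules through PGL-1 and is needed for sperm and oocytes to mature. IFE-3, the closest relative of mammalian eIF4E-1, is essential, and IFE-5 is a close relative of IFE-1. IFE-2 is the main eIF4E of somatic tissue, and worms that lack it live longer. IFE-4, of a separate class that does not stand in for the others, is found in neurons and muscle. Many worm transcripts receive a trimethylated cap by trans-splicing. IFE-1, IFE-2 and IFE-5 bind this cap as well as the usual monomethylated one, while IFE-3 and IFE-4 bind only the monomethylated cap. Lowering IFG-1 slows translation as a whole and lengthens adult life.

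The 6 genes are protein-coding, and their positions were taken from the WBcel235 annotation. The gene ife-1 (WBGene00002059, F53A2.6) lies on chromosome III at 13343417 to 13344618 on the plus strand, with 995 bp of exon in 3 blocks, of which 246 bp are shared with the neighbouring gene dro-1 on the same strand. The gene ife-2 (WBGene00002060, R04A9.4) lies on chromosome X at 381385 to 382709 on the minus strand and has 835 bp of exon. Near the left end of chromosome V, ife-3 (WBGene00002061, B0348.6) spans 6584 to 7828 on the minus strand with 1118 bp of exon, 51 bp of which overlap idpp-2 on the opposite strand. The X-linked ife-4 (WBGene00002062, C05D9.5) spans 1104212 to 1106251 on the plus strand with 850 bp of exon. On chromosome II lie ife-5 (WBGene00002063, Y57A10A.30), at 12280660 to 12284139 on the plus strand with 850 bp of exon, and ifg-1 (WBGene00002066, M110.4), at 8217222 to 8222396 on the plus strand with 4669 bp of exon in 9 blocks. The eIF4G transcript is therefore far longer than any of the eIF4E transcripts. It shares 11 bp of exon with dab-1 on the same strand, and ife-5 begins 64 bp after Y57A10A.29. The strand setting of the counting and its handling of shared exons are not given in the sources used here, so counts in the stretches that ife-1, ife-3 and ifg-1 share are uncertain.

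The Day 6 libraries held 13043617 to 29247719 counts and the L4 libraries 14517986 and 9368922. L4 replicate 1 stood apart from the other libraries. Features with any count numbered 12442 there and 14706 to 16634 in the other libraries, and it had a scaling factor (TMM, the trimmed mean of M values) of 0.293, against 1.03 to 1.63. It also held relatively more counts from short genes. Among genes of 800 to 1200 bp of exon the median log2 ratio of L4 replicate 1 over L4 replicate 2 was 0.94 (1140 genes), and among genes of 4000 to 5500 bp it was -1.82 (286 genes). The eIF4E genes fall in the first of these length ranges and ifg-1 in the second. The same log2 ratio was 2.47 to 3.00 for ife-1, ife-2, ife-3 and ife-5, above the upper quartile of 1.96 for genes of their length, and 0.65 for ife-4. Across all genes tested, 1829 of 12758 were called higher at Day 6 and 1601 lower (edgeR quasi-likelihood test, Benjamini-Hochberg adjusted p under 0.05). With the replicate as a block these counts were 817 and 645 by the numbers in the sample titles, and 412 and 359 by those in the library names. Germline and oocyte markers were high at Day 6, with a summed level of 4551 to 9921 CPM (counts scaled to a common library size, here with TMM) in Day 6 libraries, against 399 and 288 CPM in L4 libraries.

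No member passed the test between Day 6 adults and L4 larvae when all 5 libraries were used. Of the summed eIF4E level per exon length, the share of ife-3 was larger in each Day 6 library and that of ife-2 smaller. The share of ife-1 was also smaller, but narrowly (48.1% in Day 6 replicate 3 against 48.8% in L4 replicate 2), and those of ife-4 and ife-5 overlapped. Ratios of counts did not overlap for 5 of the 10 pairs of eIF4E genes, beside 60.02% of pairs of tested genes with a count in every library. In CPM, ifg-1 was higher and ife-4 lower in each Day 6 library than in either L4 library. Of all genes tested, 35.4% were higher and 23.4% lower in this way. The other members overlapped. Of the 6 members, 0 were called higher, where 14.3% of all genes tested were, and 0 were called lower, where 12.5% were (edgeR). With an unadjusted p under 0.05 there was 1, ife-2, and among the other tools DESeq2 called 1 member lower, again ife-2, and limma voom called 0. The median log2 fold change of the 6 was -1.18, beside 0.08 over all genes tested, but its direction turned on the L4 libraries. Without L4 replicate 1 it was 0.72 (0.07 over all genes), and without L4 replicate 2 it was -1.72 (1.05 over all genes), where 4 members were called lower and 1 higher (24.2% and 36.5% of all genes, edgeR).

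In levels per exon length, ife-1 and ife-3 led the family in the Day 6 libraries. Their levels were 213 ± 54.3 and 174 ± 57.5 CPM per kb (SD, n = 3), followed by ife-2 at 71.4 ± 11.9, ifg-1 at 16.7 ± 1.20, ife-5 at 6.71 ± 2.05 and ife-4 at 4.98 ± 1.19 CPM per kb. In the L4 libraries the order was ife-1 at 628 ± 690 CPM per kb (SD, n = 2), ife-2 at 260 ± 258, ife-3 at 183 ± 180, ife-5 at 15.5 ± 15.98, ife-4 at 11.3 ± 3.55 and ifg-1 at 6.23 ± 5.40. The last of these ranks are those of L4 replicate 1, and in L4 replicate 2 ifg-1 (10.05 CPM per kb) stood above ife-4 (8.80) and ife-5 (4.204). By the range over libraries, neighbours at Day 6 overlapped for ife-1 with ife-3 and for ife-5 with ife-4, while ife-2 and ifg-1 stood clear of the genes above and below them. At L4 the neighbours overlapped, except that ife-3 stood clear of ife-5. These ranges mix in the differences between libraries. Within each Day 6 library ife-1 was above ife-3 (255, 151 and 233 against 234, 119 and 168 CPM per kb). In Day 6 replicate 2 alone ife-5 was below ife-4 (5.99 against 6.27). The order ife-1, ife-2, ife-3 held within both L4 libraries (1116, 443 and 311 CPM per kb in L4 replicate 1, and 140, 77.7 and 55.9 in L4 replicate 2). In every library ife-1, ife-2 and ife-3 lay above the 90th percentile of all genes tested per exon length, and ife-4 and ife-5 lay between the 43.4th and the 79.4th.

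**Figure D1:**
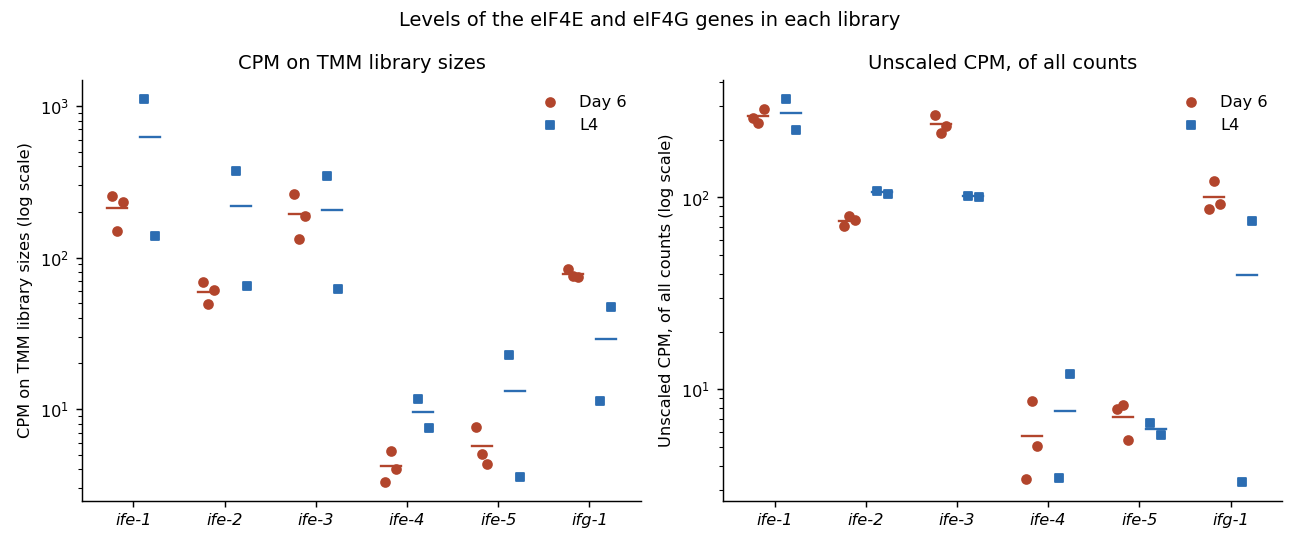
Level of each member in each library, as CPM on TMM-scaled library sizes (left) and as unscaled CPM, of all counts in the library (right), both on a log scale. Points are libraries (Day 6, n = 3; L4, n = 2) and lines are means. The L4 libraries lie far apart on the left for ife-1, ife-2, ife-3 and ife-5, and ifg-1 is higher in each Day 6 library than in either L4 library on both scales.

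The germline gene ife-1 was at 253, 151 and 232 CPM in Day 6 libraries, against 1111 and 139 CPM in L4 libraries. The L4 libraries differed 7.98-fold from each other and enclosed all Day 6 values. The log2 fold change of Day 6 over L4 was -1.56 with a standard error of 0.88 (adjusted p = 0.21, edgeR). Without L4 replicate 1 it was 0.68 (0.07 over all genes), and without L4 replicate 2 it was -2.38 (1.05 over all genes). Its sign was thus set by which 1 L4 library was kept. As a part of all counts in the library, with no TMM scaling, ife-1 stood at 261, 245 and 290 unscaled CPM in Day 6 libraries, against 326 and 225 unscaled CPM in L4 libraries, which again overlap. Its neighbour dro-1, with which it shares exon sequence, had 970, 440 and 571 counts in Day 6 libraries, against 57 and 175 in L4 libraries, while ife-1 had 7629, 3198 and 3889 counts, against 4729 and 2104.

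The essential gene ife-3 was at 262, 133 and 188 CPM in Day 6 libraries, against 347 and 62.5 CPM in L4 libraries. The Day 6 values lie between the L4 values. The log2 fold change was -0.07 with a standard error of 0.79 (edgeR, adjusted p = 0.95), with a 95% interval from -1.90 to 1.75. With L4 replicate 1 left out, ife-3 was the only member called, at 1.71 (adjusted p = 0.0143, edgeR), in a fit where 26.02% of all genes were called higher and 24.1% lower and where the 1 remaining L4 library was taken to vary as much as those of Day 6. With L4 replicate 2 left out it was at -0.83 (adjusted p = 0.11), in a fit that called 36.5% of all genes higher and 24.2% lower and moved the median over all genes to 1.05. As a part of all counts the L4 libraries lay close together for ife-3. It took 269, 217 and 235 unscaled CPM in Day 6 libraries, against 102 and 101 unscaled CPM in L4 libraries, with no overlap. The share of all genes without overlap was not counted on this scale. In TMM-scaled CPM, 35.4% of all genes tested were higher without overlap and 23.4% lower.

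The somatic gene ife-2 was at 68.7, 49.1 and 61.2 CPM in Day 6 libraries, against 370 and 64.9 CPM in L4 libraries. Only L4 replicate 1 stood well above the Day 6 range, and L4 replicate 2 lay within it. The log2 fold change was -1.86 ± 0.73 (SE, edgeR, adjusted p = 0.0942), with a 95% interval from -3.57 to -0.16. DESeq2 gave -2.17 and called it (adjusted p = 0.0234), with 20.7% of all genes called lower by that tool. With edgeR and only 1 L4 library kept, it was -0.05 without L4 replicate 1 (0.07 over all genes). Without L4 replicate 2 it was -2.62 (1.05 over all genes). As a part of all counts, ife-2 took 70.7, 79.8 and 76.5 unscaled CPM in Day 6 libraries, against 108 and 105 unscaled CPM in L4 libraries. These did not overlap, but how many of all genes did so on this scale was not counted.

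Both rare isoforms had few counts. The somatic ife-4 had 100, 113 and 68 counts in Day 6 libraries, against 50 and 113 in L4 libraries, or 3.32, 5.33 and 4.05 CPM, against 11.7 and 7.48 CPM. Every Day 6 library was lower than either L4 library in CPM, as were 23.4% of all genes tested, but not as a part of all counts. Its log2 fold change was -1.17 ± 0.56 (SE, edgeR, adjusted p = 0.15). With only 1 L4 library kept, it was -0.74 without L4 replicate 1 (0.07 over all genes) and -1.47 without L4 replicate 2 (1.05 over all genes). The germline ife-5 had 231, 108 and 73 counts in Day 6 libraries, against 97 and 54 in L4 libraries, or 7.67, 5.09 and 4.35 CPM, against 22.8 and 3.57 CPM. These overlap, and the log2 fold change was -1.18 ± 0.78 (SE, edgeR, adjusted p = 0.28). Its direction turned on the L4 library too, at 0.76 without L4 replicate 1 and -1.98 without L4 replicate 2.

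The scaffold gene ifg-1 did not pass the test either. It was at 84.2, 75.2 and 73.9 CPM in Day 6 libraries, against 11.3 and 46.9 CPM in L4 libraries. It was higher in every Day 6 library than in either L4 library, as were 35.4% of all genes tested. Its mean was 77.7 ± 5.60 CPM at Day 6 (SD, n = 3) and 29.1 ± 25.2 CPM at L4 (SD, n = 2), and the log2 fold change was 1.41 ± 0.66 (SE, edgeR, adjusted p = 0.15), with a 95% interval from -0.13 to 2.94. The low L4 value rested on 48 counts in L4 replicate 1, against 709 in L4 replicate 2. Without L4 replicate 1 the log2 fold change was 0.81 (0.07 over all genes). Without L4 replicate 2 it was 2.79 (1.05 over all genes). Each of these fits kept only 1 L4 library. With the trend of counts on exon length removed in each library it was 0.39 (edgeR, adjusted p = 0.51), beside a median of -0.34 over all genes. The difference between the L4 libraries in this gene, -2.06 on the log2 scale, lay within the quartiles of genes of its length (-2.66 to -0.67).

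**Figure D2:**
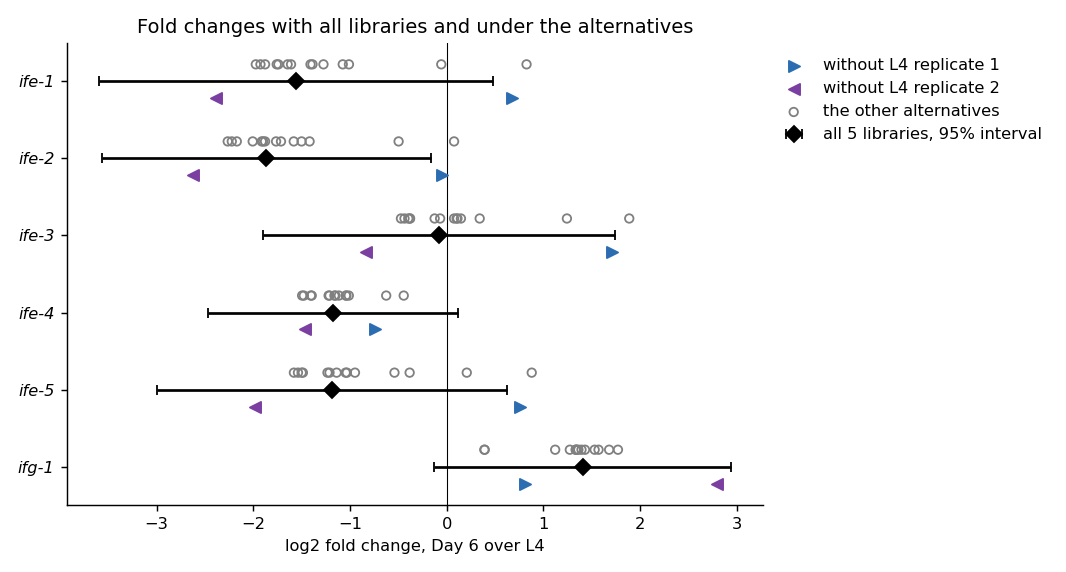
Log2 fold change of Day 6 over L4 for each member. Diamonds are the edgeR estimates from all 5 libraries with 95% intervals, triangles the estimates with either L4 library left out, and open circles the other alternatives. The estimates of ife-1 run from -2.38 to 0.83 and those of ife-3 from -0.83 to 1.89, while ifg-1 is above 0 and ife-4 below 0 under each of the 16 alternatives.

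Comparing members within a library does not depend on how libraries were scaled against each other. Each eIF4E gene was therefore given as a share of the summed eIF4E level per exon length. The share of ife-3 was 40.1%, 34.9% and 34.7% in Day 6 libraries, against 16.3% and 19.5% in L4 libraries. The means were 36.6% ± 3.0 (SD, n = 3) and 17.9% ± 2.3 (SD, n = 2), a difference of 18.7 percentage points, which was 16.9 to 20.3 points with each library left out in turn or the length trend removed. The share of ife-2 was 14.1%, 17.2% and 15.1% in Day 6 libraries, against 23.2% and 27.1% in L4 libraries, a difference of -9.68 points. The share of ife-1 was 43.6%, 44.3% and 48.1% in Day 6 libraries, against 58.4% and 48.8% in L4 libraries, a difference of -8.29 points that was -3.49 without L4 replicate 1 and -13.1 without L4 replicate 2, and here Day 6 replicate 3 and L4 replicate 2 nearly touch. The rare isoforms overlapped, with ife-4 at 0.67% to 1.83% in Day 6 libraries, against 0.72% and 3.07% in L4 libraries, and ife-5 at 1.06% to 1.75%, against 1.40% and 1.47%.

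**Figure D3:**
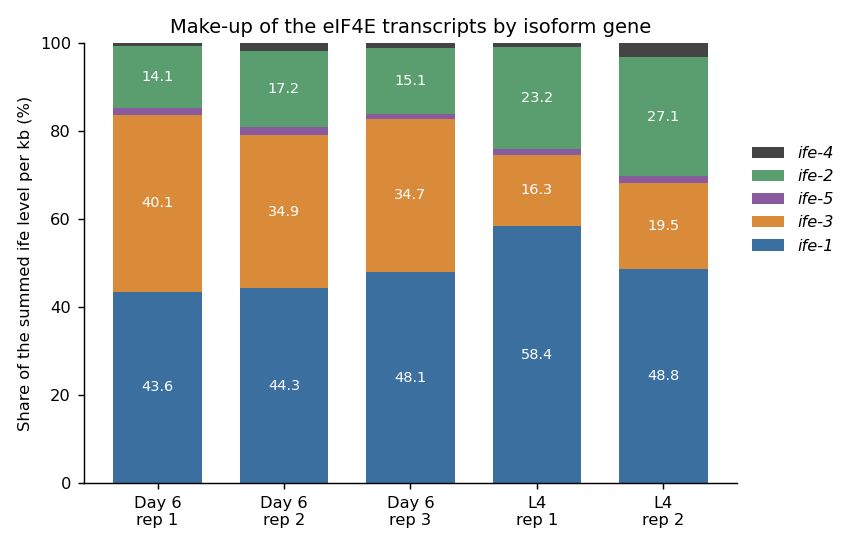
Share of each eIF4E gene in the summed eIF4E level per exon length, in percent, for each library. Numbers within the bars are shares of ife-1, ife-3 and ife-2. The share of ife-3 is 34.7% to 40.1% in the Day 6 libraries, above the 16.3% and 19.5% of the L4 libraries, and that of ife-2 is lower in each Day 6 library than in either L4 library.

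The same contrast was read from ratios of counts, which need no scaling between libraries. They were not corrected for exon length, so a length trend that differs between libraries stays in them. For each count of ife-2 there were 3.81, 2.72 and 3.07 counts of ife-3 in Day 6 libraries, against 0.939 and 0.962 in L4 libraries. The L4 libraries, so far apart in most respects, gave nearly the same ratio of counts (exact 95% intervals 0.874 to 1.01 and 0.879 to 1.05, which cover counting error only). Per kb of exon, ife-2 stood above ife-3 in both. The levels were 443 against 311 CPM per kb in L4 replicate 1 and 77.7 against 55.9 in L4 replicate 2. With the length trend removed, the share of ife-2 per exon length stayed above that of ife-3 in both L4 libraries. The shares were 20.9% against 18.03% in L4 replicate 1 and 28.3% against 18.6% in L4 replicate 2. The geometric mean of the count ratio of ife-3 to ife-2 was 3.33-fold higher at Day 6. The ratio of ife-3 to ife-1 was 1.03, 0.885 and 0.811 in Day 6 libraries, against 0.313 and 0.449 in L4 libraries, 2.42-fold higher. The ratio of ife-1 to ife-2 was 3.69, 3.07 and 3.79 in Day 6 libraries, against 3.00 and 2.15 in L4 libraries, and the lowest Day 6 value and the highest L4 value lie close together. Over all genes tested, the ratio of counts to ife-2 was higher in every Day 6 library than in either L4 library for 45.4%, so ife-3 was 1 of many genes that differed from ife-2 in this way.

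Of the 15 pairs of members, 7 had ratios that did not overlap between the ages, among them 5 of the 10 pairs of eIF4E genes. Ratios of all 59541328 pairs among the 10913 tested genes with a count in every library did not overlap for 60.02%, so the members' pairs did so no more often than pairs of genes in general. By an exact permutation test on log2 ratios (two-sided, absolute difference of means), 3 libraries against 2 allow 10 arrangements and a smallest p of 0.1. That smallest value was given by the ratios of ife-3 to ife-2, to ife-1 and to ife-5 (exact permutation p = 0.1). The ratios of ife-2 and of ife-4 to ifg-1 gave it too. No pair could therefore pass a threshold of 0.05. A ratio shows unequal change, and does not show which of its genes changed. Per exon length, the summed level of ife-1, ife-3 and ife-5 was divided by that of ife-2 and ife-4. This ratio was 5.77, 4.26 and 5.20 in Day 6 libraries, against 3.18 and 2.31 in L4 libraries. These too did not overlap, but how often such sums over all genes do so was not counted. Of the pairs within it, ife-1 to ife-4 overlapped, and ife-1 to ife-2 was parted by only 0.032 on the log2 scale. Of the markers of the germline and of oocytes, 13 of 14 were called higher at Day 6, and of those of body wall muscle and intestine 5 each were called lower. Sperm markers, also of the germline, went the other way, with 5 of 9 called lower and 0 higher (median log2 fold change -3.17). No neuron marker of 10 was called (median 0.17). The part of any cell type in the ratios was not tested.

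**Figure D4:**
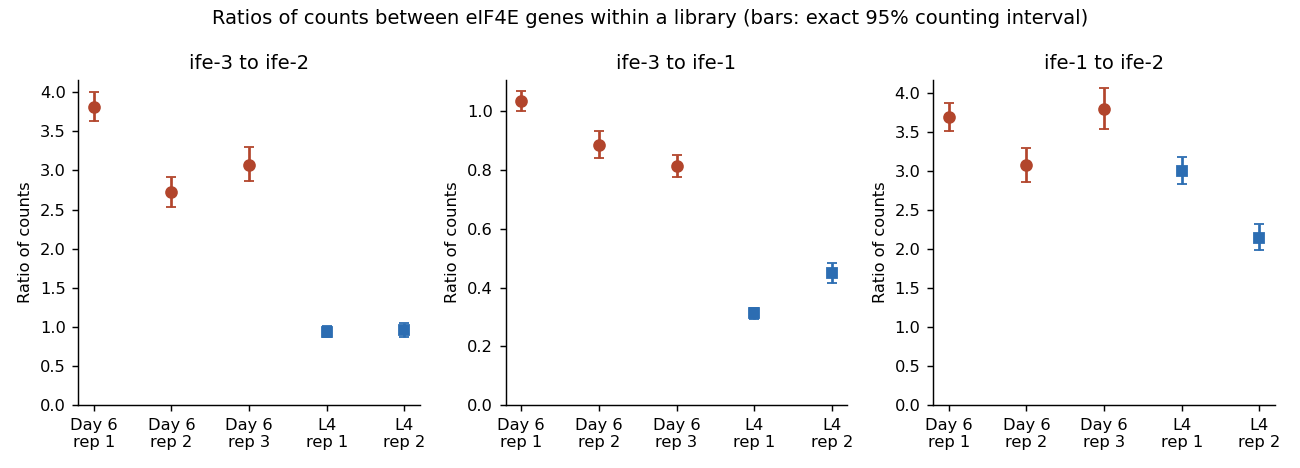
Ratios of counts between pairs of eIF4E genes within each library. Points are libraries and bars are exact 95% counting intervals. The ratio of ife-3 to ife-2 is 2.72 to 3.81 in the Day 6 libraries and 0.939 and 0.962 in the L4 libraries.

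The balance of eIF4E to eIF4G transcripts depended on L4 replicate 1. The summed eIF4E level per exon length was 32.4, 21.2 and 30.6 times the level of ifg-1 in Day 6 libraries, against 791 and 28.5 times in L4 libraries. L4 replicate 2 lay within the Day 6 range, and L4 replicate 1 far above it. With the length trend removed the ratios were 46.0, 29.1 and 43.6 at Day 6, against 258 and 30.7 at L4.

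The genes whose levels ran most like each member over the 5 libraries were found among 4471 genes by the root mean square difference of centred log2 CPM. The median distance from a member to these genes was 1.21 to 1.49. For ife-1 the nearest were rbm-3.2 (0.0448), rpl-25.2, which encodes a ribosomal protein, and faah-4. For ife-2 they were cisd-3.1 (0.0322), the eIF3 subunit gene eif-3.I and dad-1, a subunit of the oligosaccharyltransferase. For ife-3 they were the histone gene his-74 (0.0955), clec-4 and rnp-5. For ife-4 they were atgp-2 (0.109), ddl-3 and algn-5, for ife-5 nrsn-1 (0.0971), snr-1 and egl-21, and for ifg-1 dpf-3 (0.0561), jmjd-1.2 and lin-59. Among members, ife-1 and ife-2 were nearest to each other (0.293) and ife-2 and ifg-1 farthest apart (2.11). Over 5 libraries, of which L4 replicate 1 stands apart, such distances largely describe how a gene differed between the L4 libraries.

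Among the proteins that bind eIF4E, eIF4G or the cap, 1 of 10 genes was called higher and none lower, beside 14.3% and 12.5% of all genes, at a median log2 fold change of 0.39. With the length trend removed the median was -0.57 (-0.34 over all genes). None was then called higher and 1 lower, beside 1698 and 2247 of 12517 genes. Without L4 replicate 1 the median was 0.90 (0.07 over all genes). The gene called higher with all 5 libraries was ifet-1, the worm 4E-T, which binds IFE proteins and represses translation in the germline. It was at 71.2, 65.6 and 73.0 CPM in Day 6 libraries, against 7.05 and 20.7 CPM in L4 libraries, 2.32 ± 0.61 higher on the log2 scale (SE, edgeR, adjusted p = 0.0300). The groups stand well apart, but the call was lost with any 1 Day 6 library left out (edgeR, adjusted p = 0.10 to 0.12). Its log2 fold change was then 2.27 to 2.33. Calls over all genes fell in those fits too, from 1829 higher to 240 to 484 and from 1601 lower to 298 to 502. The call was also lost with the replicate as a block (edgeR, adjusted p = 0.11 by title and 0.19 by library-name numbers), with the length trend removed (0.0543) and with library size alone (0.30). The eIF4A gene inf-1, the helicase that IFG-1 carries, was at -2.58 on the log2 scale (edgeR, adjusted p = 0.0616), at -3.41 once the length trend was taken out (adjusted p = 0.0456) and at -0.68 without L4 replicate 1 (adjusted p = 0.16), and the poly(A)-binding protein gene pab-1, whose product also binds eIF4G, was at -0.41 (adjusted p = 0.81), and at 1.39 (adjusted p = 0.14) without L4 replicate 1.

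Partners of IFE proteins in germ granules and in PETISCO, the complex in which TOFU-6 holds IFE-3, were taken as another list. Of these, 2 of 9 genes were called higher and none lower, beside 14.3% and 12.5% of all genes, at a median of 1.19. The genes called were ifet-1, already counted above, and pgl-1, the P granule protein that binds IFE-1. The level of pgl-1 was 213, 130 and 136 CPM in Day 6 libraries, against 41.8 and 17.3 CPM in L4 libraries, 2.44 ± 0.65 higher on the log2 scale (SE, edgeR, adjusted p = 0.0307). Its call too was lost with any 1 Day 6 library left out (edgeR, adjusted p = 0.0941 to 0.12), under either block (0.10 and 0.29), with RLE or library size scaling (0.0605 and 0.0525) and with the length trend removed (log2 fold change 1.07, adjusted p = 0.34). The IFE-3 partner gene tofu-6 was at 82.3, 69.2 and 88.1 CPM in Day 6 libraries, against 58.0 and 12.4 CPM in L4 libraries, and did not pass (log2 fold change 1.19, adjusted p = 0.23, edgeR). Without L4 replicate 1 the median of the 9 was 1.98 (0.07 over all genes), with tofu-6 at 2.77 beside ife-3 at 1.71. Without L4 replicate 2 the median of the 9 was 0.94, below the 1.05 of all genes.

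Of 30 other initiation factor genes, none was called higher and 1 lower, beside 14.3% and 12.5% of all genes, at a median of -0.82. It was iff-2, an eIF5A gene, at 240, 266 and 269 CPM in Day 6 libraries, against 6002 and 617 CPM in L4 libraries. Both L4 libraries were above the Day 6 range, with a log2 fold change of -3.68 ± 1.08 (SE, edgeR, adjusted p = 0.0412), which was -1.18 (adjusted p = 0.0237) without L4 replicate 1. The call was lost with any 1 Day 6 library left out (edgeR, adjusted p = 0.17 to 0.20), under either block (0.38 and 0.58) and with library size alone (0.0604). The name eIF5A is historical, and this factor acts mainly in elongation and termination. Without L4 replicate 1 the median of the 30 was -0.15 (0.07 over all genes), and without L4 replicate 2 it was -1.44 (1.05 over all genes). With DESeq2, 1 of the 30 was called higher and 9 lower, beside 2308 and 3015 of 14579 genes. Of 7 elongation factor genes and their regulators none was called, where 14.3% of all genes were called higher and 12.5% lower. Their median of -1.56 turned to 0.74 without L4 replicate 1. Their summed level was 31188 to 65184 CPM in Day 6 libraries, against 209677 and 22617 CPM in L4 libraries, and so was highest in L4 replicate 1.

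Markers of cell types were read beside these results, and many lost their calls when a Day 6 library was left out or the replicate was a block. Calls over all genes fell in these fits too. Of 14 germline and oocyte markers 13 were called higher, at a median of 4.38. They were led by cbd-1, an eggshell protein gene at 2683 ± 1352 CPM at Day 6 (SD, n = 3) and 56.5 ± 7.11 CPM at L4 (SD, n = 2), the oocyte RNA-binding protein gene puf-5 (log2 fold change 5.88) and the yolk receptor gene rme-2 (5.20). Leaving out a Day 6 library left 5 to 11 of these called, and the block 11 by title and 4 by library-name numbers. Of 9 tested sperm markers 5 were called lower, among them msp-142, gsp-3 and gsp-4, and with summed levels of 25.2 to 65.7 CPM in Day 6 libraries, against 286 and 249 CPM in L4 libraries. With a Day 6 library left out 0 or 1 of these was called, and under the block 4 and 0. Of 10 body wall muscle markers 5 were called lower, among them lev-11, mlc-2 and mup-2, and of 9 intestine markers 5, among them act-5, ifb-2 and erm-1. None of these muscle or intestine calls was made with a Day 6 library left out, and under the block 0 and 1 were made by title numbers and none by library-name numbers. No neuron marker of 10 was called, at a median of 0.17. The level of ife-1 overlapped between the ages, as did those of ife-2, ife-3 and ife-5, and the part of any cell type in them was not tested.

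**Figure D5:**
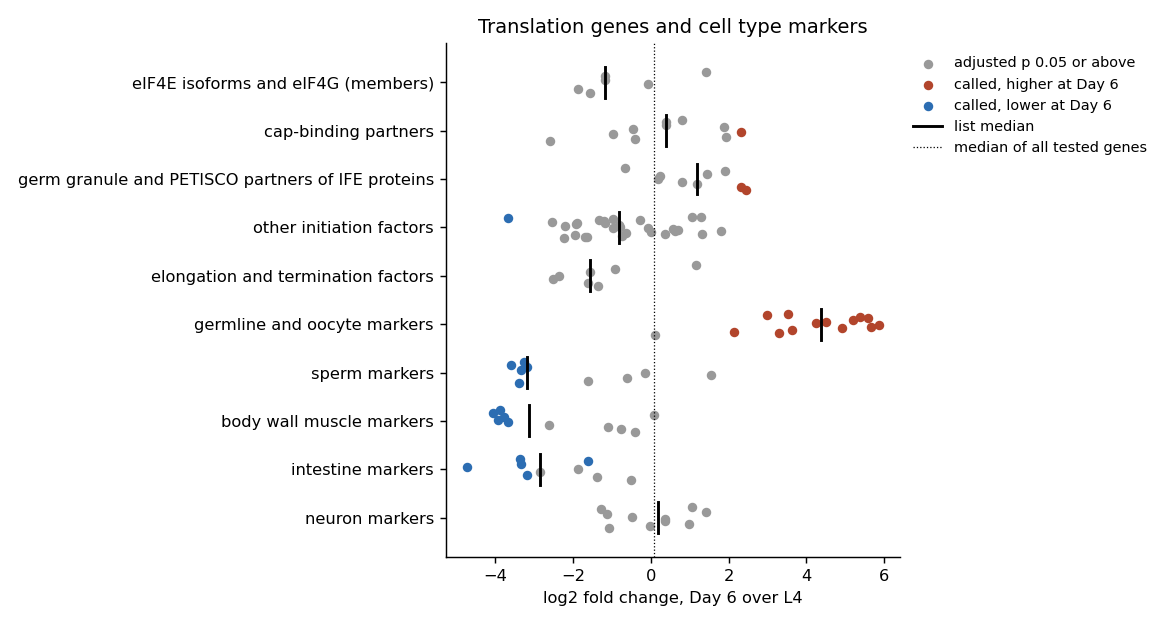
Log2 fold change of Day 6 over L4 for the members, the other translation genes and the cell type markers. Each point is a tested gene, in red or blue where it was called, short black lines are list medians, and the dotted line is the median over all genes tested (0.08). The 6 members lie between -1.86 and 1.41 with none called, and 13 of 14 germline and oocyte markers were called higher.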

How the data were processed

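The deposited files hold raw counts per gene, 1 file per library. Per the study's methods, ribosomal RNA was depleted, cDNA was made strand-specifically, and single reads were aligned to WormBase WS254 with TopHat2 and counted by the authors with featureCounts (versions not given in the sources used here). No normalization by the authors is in the deposited counts. Of the features, 17820 were named through WormBase IDs, and 18160 had an exon length in Ensembl release 115 (WBcel235). Counts grow with transcript length, so levels were compared between genes only per kb of exon.

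Day 6 (n = 3) was compared with L4 (n = 2) by the quasi-likelihood test of edgeR 4.0.16 in R 4.3.3, after TMM and filterByExpr (minimum count 10, minimum total 15), on 12758 genes with two-sided p adjusted by Benjamini-Hochberg over all of them. The threshold for a call was an adjusted p of 0.05, and all 6 members passed the filter. CPM used TMM-scaled library sizes, and log2 CPM a prior count of 2. The 16 alternatives were RLE, upper-quartile and library size scaling, DESeq2 1.42.0, limma 3.58.1 voom, no filter, 1 CPM in 2 libraries, each library left out, 2 replicate blocks, and removal of the trend with exon length (lowess, span 0.3), also without L4 replicate 1. Groups came from the sample labels. The script was tested on simulated data. Named were all members, up to 3 called genes of the highest mean CPM per list and direction, and the 3 genes of most similar pattern per member, among genes of at least 10 mean CPM with a symbol. Genes inf-1, pab-1 and tofu-6 were chosen after their values were seen, as was dro-1. List names that matched no feature (2 of 32 initiation, 3 of 10 elongation and termination, 1 of 15 germline and 1 of 10 intestine names) were not analysed here. The members and lists were chosen with earlier results of these data known.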

Additional observations from a re-analysis of the deposited data

How the results depend on the processing

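The sign of ife-1, ife-3 and ife-5 turned with the L4 library that was kept, while ife-4 was lower and ifg-1 higher under all 16 alternatives. Leaving out each library in turn gave log2 fold changes of -2.38 to 0.68 for ife-1, -0.83 to 1.71 for ife-3 and -1.98 to 0.76 for ife-5. With L4 replicate 1 left out and the length trend removed, they were 0.83 for ife-1, 0.077 for ife-2, 1.89 for ife-3 and 0.88 for ife-5. With library size alone ife-3 was at 1.24 and ife-5 at 0.21, and ife-3 was at 0.15 with voom and 0.077 with no filter. Other scalings moved the median over all genes by -0.30 (upper quartile) to 0.37 (library size), and leaving out L4 replicate 2 moved it by 0.97. Members called higher numbered 0 or 1 with each library left out, and 1 without L4 replicate 1 and the length trend. Members called lower numbered 1 with DESeq2 and 0 to 4 with each library left out. Over all genes, calls higher and lower were 150 and 175 with library size alone, 3585 and 3438 without L4 replicate 1 and the length trend, 240 to 4837 and 298 to 3450 with each library left out, and 3015 lower with DESeq2. The cause was not tested.

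The study's methods say that samples of the same replicate were prepared together, but titles and library names number the L4 libraries differently. Deviations from group means correlated at 0.344 and 0.268 across genes in the pairs by title, and at -0.268 and 0.134 by library name, with only 2 pairs in either. The deviations of the 2 L4 libraries mirror each other, so a Day 6 library's correlations with them differ only in sign. These values are therefore tied to each other and cannot decide between the numberings. With the replicate block, 817 genes were called higher and 645 lower by title numbers and 412 and 359 by library-name numbers, ife-3 was at 0.34 and 0.10, and no member was called. Counts were low for ife-4 (50 to 113) and ife-5 (54 to 231) and, in L4 replicate 1 alone, for ifg-1 (48).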
